A study of Mus musculus with 26 samples.

Results

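6 libraries of a mouse chemical reprogramming study are compared here: 3 from a course run without BrdU on days 30, 36 and 40, and 3 from the course that received all chemicals on the same days. They were chosen by the treatment and day in their labels and are 6 of 26 libraries. In the study, embryonic fibroblasts (MEF) were cultured with small molecules toward chemically induced pluripotent stem cells (CiPSC), and RNA was sequenced along the way. BrdU, bromodeoxyuridine, is a thymidine analogue that cells build into newly made DNA; apart from Chir, left out of another course that is not compared here, the labels name no other chemical, and they give no outcome for either course. Each course has 1 library per day and no stated repeat in a separate culture. For scale, 1 MEF library (day 0), 6 CiPSC libraries and the 8 libraries of both courses from days 6 to 22 were also used.

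Reprogramming asks a fibroblast to give up a mesenchymal programme of collagen, contractile filaments and positional Hox genes, to take on epithelial junctions, and to switch on the transcription factors that keep a cell pluripotent. In mouse chemical protocols, genes of extra-embryonic endoderm are known to come on before the pluripotency genes do. A thymidine analogue enters DNA mainly in cells that copy it, so genes of DNA replication and division were described alongside those of identity.

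The deposited values are whole-number expression scores that share nearly 1 distribution in every library, with a median of 77 and a ceiling of 21988 held by 10 genes per library; sequencing depth is not known. Sets of 3 values below run in the order day 30, day 36 and day 40. Differences are log2 of (value + 1), without BrdU minus full course, given ± SE from a limma fit with day as a block over 6 libraries, and a gene is called when its Benjamini-Hochberg adjusted p over 16151 genes is below 0.05. Genes said below to rise or fall are higher or lower without BrdU than in the full course, which is not a change over time. Since the 3 days stand in for repeats, the spread mixes noise with change over time, neighbouring days of 1 course cannot count as independent, and an exact test on 3 pairs of a single gene could not go below p = 0.25. Fewer cells of a type and less RNA per cell cannot be told apart in bulk RNA. Across all genes, log2 values correlated at 0.94 to 0.953 among the libraries without BrdU and at 0.943 to 0.962 among those of the full course, against 0.766 to 0.812 between the courses. With MEF the correlation was 0.871 to 0.88 without BrdU and 0.775 to 0.779 in the full course, and with CiPSC it was 0.562 to 0.597 without BrdU and 0.698 to 0.772 in the full course; these are descriptions over genes.

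On days 30 to 40 the course without BrdU had lower levels of most pluripotency, endoderm and division genes than the full course, and higher levels of most matrix, protease, Hox and acute-phase genes; the counts follow list by list. Of 16151 genes tested, 8077 were called (50%), 3978 of them higher without BrdU (24.6%) and 4099 lower (25.4%). A call with a difference of at least 2 on the log2 scale was reached by 1367 genes that were higher (8.46%) and 1616 that were lower (10%). The median difference over all genes tested was 0.02. The values of the courses did not overlap in 9600 genes (59.4%). The count of calls was 6718 without day 30, 4320 without day 36 and 4253 without day 40.

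The 12 largest rises by the naming rule were led by Saa3, Mmp3 and Ctla2a. Saa3, an acute-phase serum amyloid (chr7:46711998-46715700, minus strand, mm10), stood at 6875, 21988 and 21988 without BrdU, against 36, 26 and 10 in the full course, a difference of 9.39 ± 0.58 (adjusted p = 0.000107) that is a limit because 2 libraries are at the ceiling. Mmp3, stromelysin 1 (chr9:7445822-7455975, plus strand), reached 1244, 3241 and 4224 without BrdU, against 12, 6 and 11 in the full course (7.97 ± 0.42, adjusted p = 6.92e-05). Ctsk, the collagen-degrading protease cathepsin K (chr3:95499256-95509362, plus strand), gave 4506, 6084 and 4208 without BrdU, against 83, 91 and 67 in the full course (5.91 ± 0.14, adjusted p = 2.06e-05). In all 3 genes, named for their size of difference, every library without BrdU was above every library of the full course. In either direction, 59.4% of all genes tested had no overlap. Among the late libraries without BrdU, Saa3 and Mmp3 were lowest on day 30. The other 9 of the 12 were Ctla2a, Mgp (matrix Gla protein), the chemokine Ccl8, the prostaglandin D synthase Ptgds, Fbln7, Crp (C-reactive protein), Cyp2f2, the matrix protein Dpt (dermatopontin) and the neuropeptide Y receptor Npy1r, with differences of 6.22 to 7.24.

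Among the largest falls were genes of endoderm and of epithelia. Igfbp1, which binds insulin-like growth factors outside the cell (chr11:7197782-7202546, plus strand), was at 3, 2 and 0 without BrdU, against 4962, 2277 and 3630 in the full course (-10.56 ± 0.42, adjusted p = 3.71e-05). Cldn6, a tight-junction claudin of embryonic epithelia (chr17:23679249-23682446, plus strand), was at 1, 0 and 0 without BrdU, against 2032, 1791 and 1612 in the full course (-10.48 ± 0.28, adjusted p = 2.48e-05). Each was at or near 0 in all 3 libraries without BrdU and at 1612 or more in the full course. In all, 5 of the 12 largest falls were listed at 0 in every library without BrdU, so no fold is given. In the full course these stood at 3414, 2628 and 1792 for Car4, a carbonic anhydrase, at 1046, 1136 and 750 for Pga5, a pepsinogen, and at 1004, 696 and 712 for Cited1, a transcriptional co-activator. Pgc, another pepsinogen, and Ihh, a hedgehog ligand, stood at 280 to 516 in the full course. Sox17, Aifm3, the adenosine receptor Adora1, the water channel Aqp8 and Dppa5a made up the rest, with differences of -8.55 to -9.07.

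**Figure D1:**
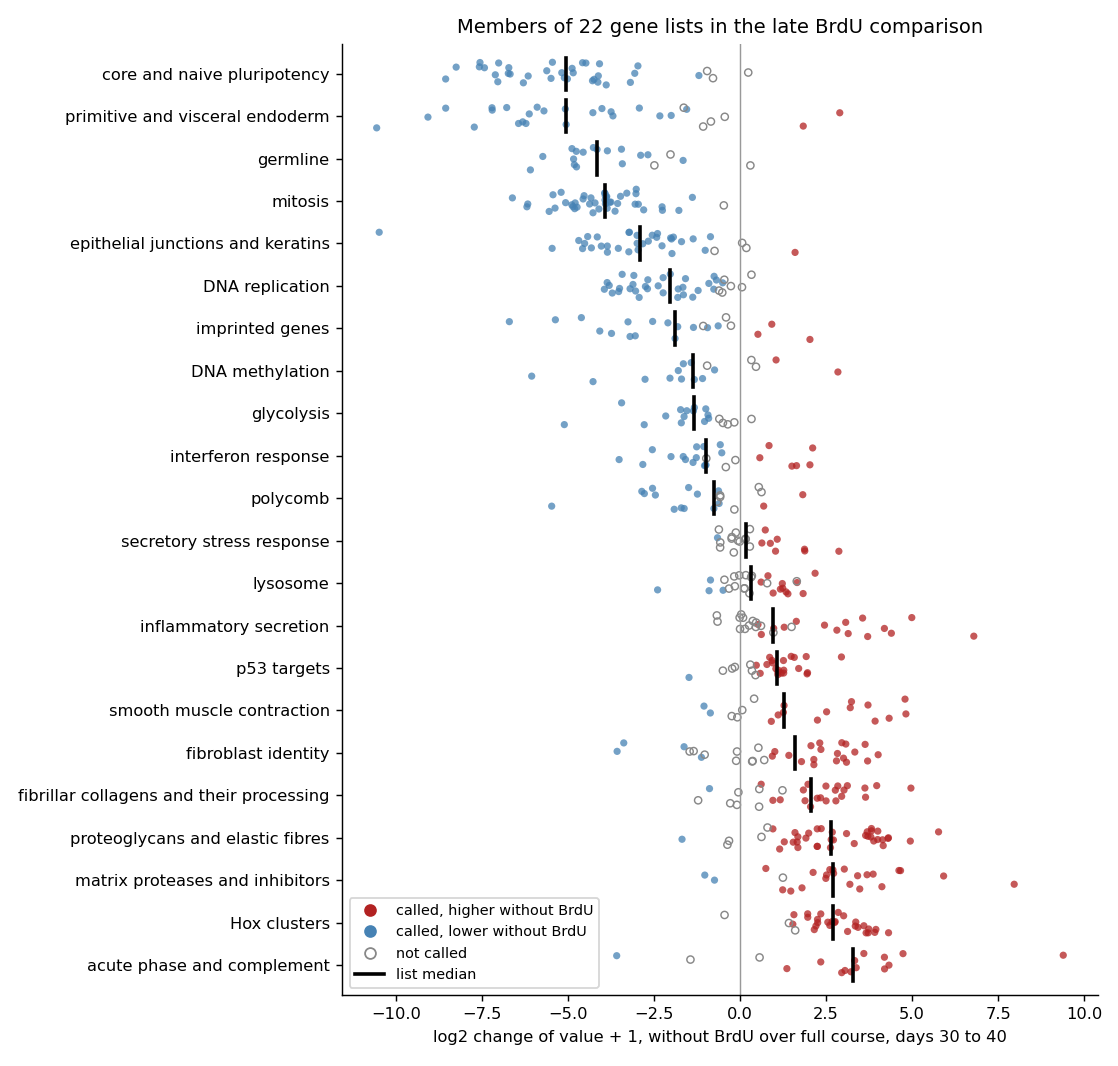
Difference between the course without BrdU and the full course on days 30 to 40 (x axis, log2 of value + 1, positive is higher without BrdU) for each member of 22 gene lists (rows). Red points are genes called higher, blue points genes called lower, hollow points genes not called, and black bars list medians; the mitosis median lies at -3.92 and the proteoglycan and elastic fibre median at 2.64.

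Pluripotency genes were lower without BrdU. Of 36 members, all tested, 33 were lower without BrdU and 0 higher, with a median difference of -5.06, and 9 were listed at 0 in all 3 libraries without BrdU. Pou5f1, the core factor Oct4 (chr17:35506018-35510772, plus strand), was at 0, 6 and 16 without BrdU, against 246, 553 and 1046 in the full course (-6.73 ± 0.42, adjusted p = 0.000110). Its values in the full course went up over the 3 days toward the CiPSC mean of 4824 ± 409 (SD, n = 6), while those without BrdU stayed below 20. Sall4, a zinc-finger factor shared by early endoderm and pluripotent cells, was at 3, 2 and 0 without BrdU, against 480, 352 and 488 in the full course (-7.57 ± 0.48, adjusted p = 0.000111). Lin28a, an RNA-binding protein that blocks let-7 maturation, was at 0, 1 and 1 without BrdU, against 338, 278 and 214 in the full course (-7.43 ± 0.44, adjusted p = 9.62e-05). Both were already high in the full course on day 30.

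Nanog and Sox2 came up later in the full course. Nanog, a homeobox factor of the naive state (chr6:122707489-122714633, plus strand), was at 4, 0 and 0 without BrdU, against 32, 422 and 771 in the full course (-7.01 ± 1.27, adjusted p = 0.00502). Sox2, the partner of Oct4, was at 9, 4 and 10 without BrdU, against 11, 371 and 660 in the full course (-4.13 ± 1.13, adjusted p = 0.0236). On day 30 the Sox2 values of the courses differed by only a few units, and the separation lay on days 36 and 40. Nanog's call was lost without day 36 (adjusted p = 0.0845) or day 40 (adjusted p = 0.0562), and that of Sox2 without day 36 (adjusted p = 0.204), without day 40 (adjusted p = 0.175) or without the intensity trend (adjusted p = 0.0825).

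Further naive-state genes behaved alike. Esrrb, an orphan nuclear receptor, was at 4, 14 and 12 without BrdU, against 80, 279 and 475 in the full course (-4.48 ± 0.32, adjusted p = 0.000157). Zfp42 (Rex1) and Trap1a were listed at 0 in all 3 libraries without BrdU, and at 48, 114 and 206 (Zfp42) and 310, 286 and 314 (Trap1a) in the full course. Klf5, a Krüppel-like factor of the early embryo, was at 68, 54 and 46 without BrdU, against 405, 441 and 474 in the full course (-2.97 ± 0.20, adjusted p = 0.000132). A smaller fall was seen in Klf4, which is also expressed in fibroblasts and epithelia: 1136, 1553 and 916 without BrdU, against 2164, 3414 and 2628 in the full course (-1.19 ± 0.17, adjusted p = 0.00203). The 3 members not called were Dnmt3l, Klf2 and Tbx3; Tbx3 was at 283, 586 and 283 without BrdU, against 328, 392 and 222 in the full course (0.24 ± 0.19, adjusted p = 0.32), and its values overlapped.

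Genes of the later, primed epiblast were low as well, and low in both courses for some. Of 10 tested (11 listed), 7 were lower without BrdU and 0 higher, with a median of -2.76. The count of lower members was 2 without day 36 and 1 without day 40. Dnmt3b, a de novo DNA methyltransferase, was at 15, 6 and 18 without BrdU, against 44, 157 and 92 in the full course (-2.76 ± 0.58, adjusted p = 0.00893, and 0.0608 without day 40). T (brachyury) and the Nodal antagonist Lefty2 were listed at 0 in all libraries without BrdU, against 2, 67 and 59 for T and 10, 92 and 110 for Lefty2 in the full course; for T the adjusted p was 0.113 without day 36 and 0.0944 without day 40.

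Primitive and visceral endoderm genes separated the courses as strongly, and did so by day 30. Of 29 tested (30 listed), 23 were lower without BrdU and 2 higher, with a median of -5.05, and 6 were listed at 0 without BrdU. Gata4, the zinc-finger factor of primitive endoderm (chr14:63198922-63271692, minus strand), was at 10, 3 and 7 without BrdU, against 1838, 1154 and 1557 in the full course (-7.72 ± 0.22, adjusted p = 2.65e-05). Sox17, an endoderm HMG-box factor (chr1:4490931-4497354, minus strand), was at 3, 0 and 0 without BrdU, against 1058, 891 and 653 in the full course (-9.07 ± 0.40, adjusted p = 4.58e-05). The Gata4 level in the full course exceeded that of CiPSC, which was 12.3 ± 11.9 (SD, n = 6). Foxa2, a forkhead factor of endoderm, was at 2, 1 and 2 without BrdU, against 392, 423 and 347 in the full course (-7.21 ± 0.32, adjusted p = 4.69e-05).

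Gata6, which also marks mesenchyme, differed less. It was at 166, 175 and 189 without BrdU, against 810, 820 and 536 in the full course (-2.0 ± 0.19, adjusted p = 0.00048). The 5 members listed as receptors and adaptors were all lower: Lrp2 (megalin), the large endocytic receptor, was at 28, 17 and 22 without BrdU, against 4976, 2769 and 2769 in the full course (-7.20 ± 0.16, adjusted p = 2.06e-05), its co-receptor Cubn (cubilin) was at 8, 22 and 8, against 1024, 358 and 184, and the adaptor Dab2 was at 181, 206 and 182, against 3241, 3432 and 1496. Among the 5 is Pdgfra, a growth factor receptor of primitive endoderm and of mesenchyme, at 1920, 942 and 1290 without BrdU, against 5536, 3094 and 3426 in the full course (-1.55 ± 0.15). Secreted products fell too: Afp, alpha-fetoprotein, was at 0, 5 and 0 without BrdU, against 195, 239 and 168 in the full course, and Apoa1, apolipoprotein A-I, was at 0, 1 and 0, against 114, 130 and 85. The members higher without BrdU were Apoe, a lipid carrier that fibroblasts and macrophages also make, at 6868, 8314 and 6868 against 2550, 1836 and 1836 in the full course (1.84 ± 0.21), and Foxa1 at 82, 20 and 46 against 2, 10 and 5 (2.90 ± 0.73). Only 1 of these 2 calls was made without day 30, without day 40 or without the intensity trend.

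Basement membrane genes, which parietal endoderm makes in bulk, were mixed. Of 18 tested, 10 were lower without BrdU (55.6%) and 4 higher (22.2%), with a median of -1.41. Over all genes tested 25.4% were lower and 24.6% higher, so the higher share was near that of all genes. Lama1, the laminin chain of early embryonic basement membranes, was at 316, 408 and 354 without BrdU, against 11332, 11332 and 8316 in the full course (-4.83 ± 0.17, adjusted p = 3.65e-05). The collagen IV chains were at 1758, 1259 and 1717 (Col4a1) and 1406, 1240 and 1490 (Col4a2) without BrdU, against the ceiling of 21988 for both in all 3 libraries of the full course, so their differences of -3.82 ± 0.20 and -4.0 ± 0.18 are limits. Plod2, a lysyl hydroxylase, was at 546, 474 and 570 without BrdU, against 8303, 8303 and 21988 in the full course. Sparc, a collagen-binding glycoprotein, ran the other way, at the ceiling in all 3 libraries without BrdU, against 11327, 11327 and 8307 in the full course (1.11 ± 0.26, adjusted p = 0.0131), and so did Plat, tissue plasminogen activator, at 762, 950 and 874 against 212, 193 and 121. Lower members numbered 6 when genes at the ceiling were left out, and higher members 2 without day 36 or day 40.

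Epithelial genes were lower without BrdU but not absent. Of 36 tested (37 listed), 32 were lower and 1 higher, with a median of -2.89; among 20 junction genes 19 were lower. Cdh1, E-cadherin (chr8:106603351-106670246, plus strand), was at 160, 74 and 66 without BrdU, against 2038, 2634 and 2038 in the full course (-4.58 ± 0.29, adjusted p = 0.000111). Epcam, an epithelial adhesion molecule, was at 82, 68 and 62 without BrdU, against 1985, 1470 and 982 in the full course (-4.32 ± 0.17, adjusted p = 3.71e-05). Both were highest on day 30 among the late libraries without BrdU. The tight-junction genes Cldn7 and Ocln were at 26, 24 and 18 (Cldn7) and 11, 13 and 14 (Ocln) without BrdU, against 450, 457 and 345 (Cldn7) and 278, 400 and 223 (Ocln) in the full course. The simple-epithelial keratins Krt8 and Krt18 kept values of 168 to 291 without BrdU, against 1535 to 2631 in the full course, with differences of -3.23 ± 0.14 and -3.23 ± 0.13. Relative to MEF, 28 of 36 members were at least 1 log2 unit higher without BrdU, against 33 of 36 in the full course, and the median distance from MEF was 2.89 without BrdU and 5.71 in the full course. The member that rose was Grhl1, a grainyhead factor of epidermis, at 44, 46 and 40 without BrdU, against 12, 15 and 14 in the full course (1.60 ± 0.32, adjusted p = 0.0071), a call lost without day 36. Markers of keratinocytes, given for comparison, summed to 181 to 598 without BrdU and 109 to 140 in the full course, with 3 of 7 tested called higher (1 without day 30 or day 36) and 1 lower; their part in the epithelial values was not tested.

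Cell division genes were lower almost without exception. Of 44 mitosis genes, 43 were lower without BrdU and 0 higher, with a median of -3.92; Cdc25b, a phosphatase that starts mitosis, was at 30, 20 and 30 without BrdU, against 34, 28 and 52 in the full course, and was not called (-0.47 ± 0.30, adjusted p = 0.23). Top2a, topoisomerase II alpha (chr11:98992943-99024189, minus strand), was at 26, 19 and 26 without BrdU, against 780, 788 and 1170 in the full course (-5.20 ± 0.18, adjusted p = 3.65e-05). Ccnb1, cyclin B1, was at 4, 6 and 8 without BrdU, against 231, 328 and 420 in the full course (-5.55 ± 0.24, adjusted p = 4.53e-05). Mki67, the proliferation antigen, was at 13, 1 and 7 without BrdU, against 390, 662 and 811 in the full course (-6.61 ± 0.62, adjusted p = 0.000439). For these 3 genes each value without BrdU was far below every full-course value, while 59.4% of all genes tested had no overlap in either direction. MEF, by comparison, had 526 for Top2a and 520 for Mki67. All 44 mitosis genes were at least 1 log2 unit below MEF without BrdU, with a median distance of -3.45, and 0 of 44 were that far below MEF in the full course, where the median distance was 0.65.

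DNA replication genes fell as a group and less far. Of 37 members, 31 were lower without BrdU and 0 higher, with a median of -2.03; 14 of 16 licensing genes and 17 of 21 fork genes were lower. Mcm6, a subunit of the replicative helicase, was at 42, 51 and 44 without BrdU, against 612, 692 and 725 in the full course (-3.86 ± 0.15, adjusted p = 3.72e-05). The fork genes Lig1 (DNA ligase I) and Pcna (the sliding clamp) were at 70, 78 and 86 (Lig1) and 272, 425 and 324 (Pcna) without BrdU, against 448, 534 and 616 (Lig1) and 529, 740 and 632 (Pcna) in the full course. Neither overlapped between courses, as was so for 59.4% of all genes tested, and the Pcna difference, -0.91 ± 0.13, was the smaller of the pair.

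Promoters of these 2 lists are shown because their members moved together and their sequence carries known cell-cycle motifs; the 3 of each list are the called members with the smallest p among those that hold the motifs. The mitosis promoters below have 2 motifs in capitals, the cell-cycle homology region (CHR) TTTGAA and the CCAAT box, each on either strand, so that TTCAAA and ATTGG are the reverse complements; the replication promoters have the E2F motif GCGGGAA in capitals, other motifs being left in lower case. Sequences are RefSeq GRCm38.p6, 250 bases before to 50 after the annotated start, 5′ to 3′ on the gene's strand: Top2a from chr11:99024140-99024439 (minus), Prc1 (a midzone microtubule bundler) from chr7:80294201-80294500 (plus), Cenpf (a kinetochore protein) from chr1:189688037-189688336 (minus), Mcm3 from chr1:20820263-20820562 (minus), Mcm7 from chr5:138171834-138172133 (minus), and Pold1 (DNA polymerase delta) from chr7:44548766-44549065 (minus).
Top2a: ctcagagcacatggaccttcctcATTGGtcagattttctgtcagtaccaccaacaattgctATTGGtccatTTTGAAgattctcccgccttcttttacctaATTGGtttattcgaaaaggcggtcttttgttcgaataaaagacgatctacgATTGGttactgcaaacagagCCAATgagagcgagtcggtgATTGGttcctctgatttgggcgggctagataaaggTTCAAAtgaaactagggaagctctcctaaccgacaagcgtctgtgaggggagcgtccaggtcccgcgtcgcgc
Prc1: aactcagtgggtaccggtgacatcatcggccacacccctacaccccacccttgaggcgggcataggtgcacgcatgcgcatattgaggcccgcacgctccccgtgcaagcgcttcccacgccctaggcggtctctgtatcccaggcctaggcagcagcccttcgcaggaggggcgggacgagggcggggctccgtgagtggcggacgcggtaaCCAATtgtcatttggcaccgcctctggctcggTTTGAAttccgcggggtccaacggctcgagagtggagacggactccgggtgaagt
Cenpf: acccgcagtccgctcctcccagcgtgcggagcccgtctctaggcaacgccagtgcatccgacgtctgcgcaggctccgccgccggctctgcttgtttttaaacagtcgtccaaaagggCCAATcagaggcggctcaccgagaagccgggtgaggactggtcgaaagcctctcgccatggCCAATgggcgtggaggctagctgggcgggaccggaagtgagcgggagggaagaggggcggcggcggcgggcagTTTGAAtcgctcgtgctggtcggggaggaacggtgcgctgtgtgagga
Mcm3: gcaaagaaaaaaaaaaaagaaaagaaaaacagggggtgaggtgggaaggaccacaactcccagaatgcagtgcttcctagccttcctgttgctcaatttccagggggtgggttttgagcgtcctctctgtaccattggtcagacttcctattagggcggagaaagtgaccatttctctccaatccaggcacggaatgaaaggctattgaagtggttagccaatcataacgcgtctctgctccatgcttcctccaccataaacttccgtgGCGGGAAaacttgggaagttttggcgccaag
Mcm7: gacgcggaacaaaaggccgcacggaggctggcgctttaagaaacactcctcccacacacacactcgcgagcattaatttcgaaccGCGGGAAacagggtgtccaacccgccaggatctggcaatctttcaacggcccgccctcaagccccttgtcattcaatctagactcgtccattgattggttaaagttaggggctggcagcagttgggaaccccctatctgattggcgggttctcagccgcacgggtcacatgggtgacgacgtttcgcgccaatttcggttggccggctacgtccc
Pold1: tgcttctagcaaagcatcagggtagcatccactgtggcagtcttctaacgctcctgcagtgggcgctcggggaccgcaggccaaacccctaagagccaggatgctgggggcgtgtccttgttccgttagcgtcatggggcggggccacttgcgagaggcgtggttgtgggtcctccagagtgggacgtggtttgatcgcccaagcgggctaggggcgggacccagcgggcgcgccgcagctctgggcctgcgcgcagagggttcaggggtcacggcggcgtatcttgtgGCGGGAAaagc

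The 2 lists held these motifs in different numbers. Of 37 mitosis promoters matched (44 listed), 26 held TTTGAA (70.3%), against 12.8% of 11920 promoters of genes tested. In the same sets, 27 held CCAAT (73.0%, against 39.2%) and 22 held both (59.5%, against 5.36%), while 0 held GCGGGAA (against 7.84%). Of 30 replication promoters matched (37 listed), 12 held GCGGGAA (40%), 4 held TTTGAA (13.3%) and 19 held CCAAT (63.3%). Both strands were searched, a base could count in more than 1 motif, and a match describes these 300 bases, not a bound site. The genes whose promoters are printed had these values: Prc1 was at 15, 16 and 16 without BrdU, against 190, 216 and 272 in the full course (-3.75 ± 0.23), Cenpf at 10, 15 and 14, against 164, 208 and 266 (-3.92 ± 0.24), Mcm3 at 47, 58 and 62, against 466, 678 and 696 (-3.42 ± 0.15), and Mcm7 at 91, 105 and 84, against 462, 664 and 722 (-2.69 ± 0.19). Pold1 was at 22, 30 and 26 without BrdU, against 154, 210 and 260 in the full course (-2.93 ± 0.22). None of these 5 overlapped between courses, and neither did 59.4% of all genes tested.

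Genes of deoxynucleotide supply were less uniform, with 15 of 29 tested lower and 4 higher (median -0.76). The uptake and thymidine arm is where BrdU itself enters a cell: 6 of its 11 genes were lower and 0 higher. Slc29a1, a nucleoside transporter, was at 11, 18 and 16 without BrdU, against 416, 374 and 401 in the full course (-4.66 ± 0.24, adjusted p = 6.28e-05). Tk1, the S-phase thymidine kinase that phosphorylates thymidine and BrdU, was at 5, 6 and 9 without BrdU, against 62, 59 and 62 in the full course (-3.05 ± 0.35, adjusted p = 0.000921). Tyms, thymidylate synthase, was not called, at 114, 242 and 126 without BrdU, against 254, 227 and 242 in the full course (-0.66 ± 0.26, adjusted p = 0.0746). Ctps, a CTP synthase, rose to 439, 599 and 800 without BrdU, against 134, 229 and 240 in the full course (1.61 ± 0.15).

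Inhibitors of cyclin-dependent kinases were called in both directions. Of 7 tested, 4 were higher without BrdU (57.1%) and 2 lower (28.6%), with a median of 1.58. Over all genes tested 24.6% were higher and 25.4% lower, so the lower share was near that of all genes. The INK4 locus genes Cdkn2b and Cdkn2a were at 1038, 932 and 918 (Cdkn2b) and 1321, 2769 and 1718 (Cdkn2a) without BrdU, against 119, 68 and 71 (Cdkn2b) and 290, 228 and 236 (Cdkn2a) in the full course, differences of 3.52 ± 0.18 (adjusted p = 6.26e-05) and 2.88 ± 0.26 (adjusted p = 0.00039). Cdkn1a, the p21 inhibitor and a p53 target, was at 2631, 2215 and 2631 without BrdU, against 771, 862 and 868 in the full course (1.58 ± 0.15, adjusted p = 0.000468). Cdkn1c (p57), an imprinted inhibitor, ran the other way at 382, 320 and 233 without BrdU, against 1070, 879 and 508 in the full course (-1.35 ± 0.14), and so did Cdkn1b (p27) at 106, 74 and 117 against 210, 143 and 235 (-0.97 ± 0.16); 1 of these 2 falls was called without day 40 and in a fit over all 14 libraries of both courses, where Cdkn1c had an adjusted p of 0.0661.

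Targets of p53 were mostly higher. Of 28 tested, 21 were higher without BrdU and 1 lower, with a median of 1.07. Plk2, a polo-like kinase, was at 1060, 2036 and 1368 without BrdU, against 258, 510 and 378 in the full course (1.96 ± 0.13). Fas, a death receptor, was at 150, 270 and 221 without BrdU, against 26, 34 and 20 in the full course (2.95 ± 0.25), and Phlda3, a repressor of Akt, at 795, 849 and 820, against 306, 288 and 284 (1.49 ± 0.13). Ddb2, a DNA damage sensor, was the member that fell, at 60, 40 and 48 without BrdU, against 178, 136 and 108 in the full course (-1.48 ± 0.21). Relative to MEF the median of the list was 0.36 on the log2 scale without BrdU and -0.61 in the full course.

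**Figure D2:**
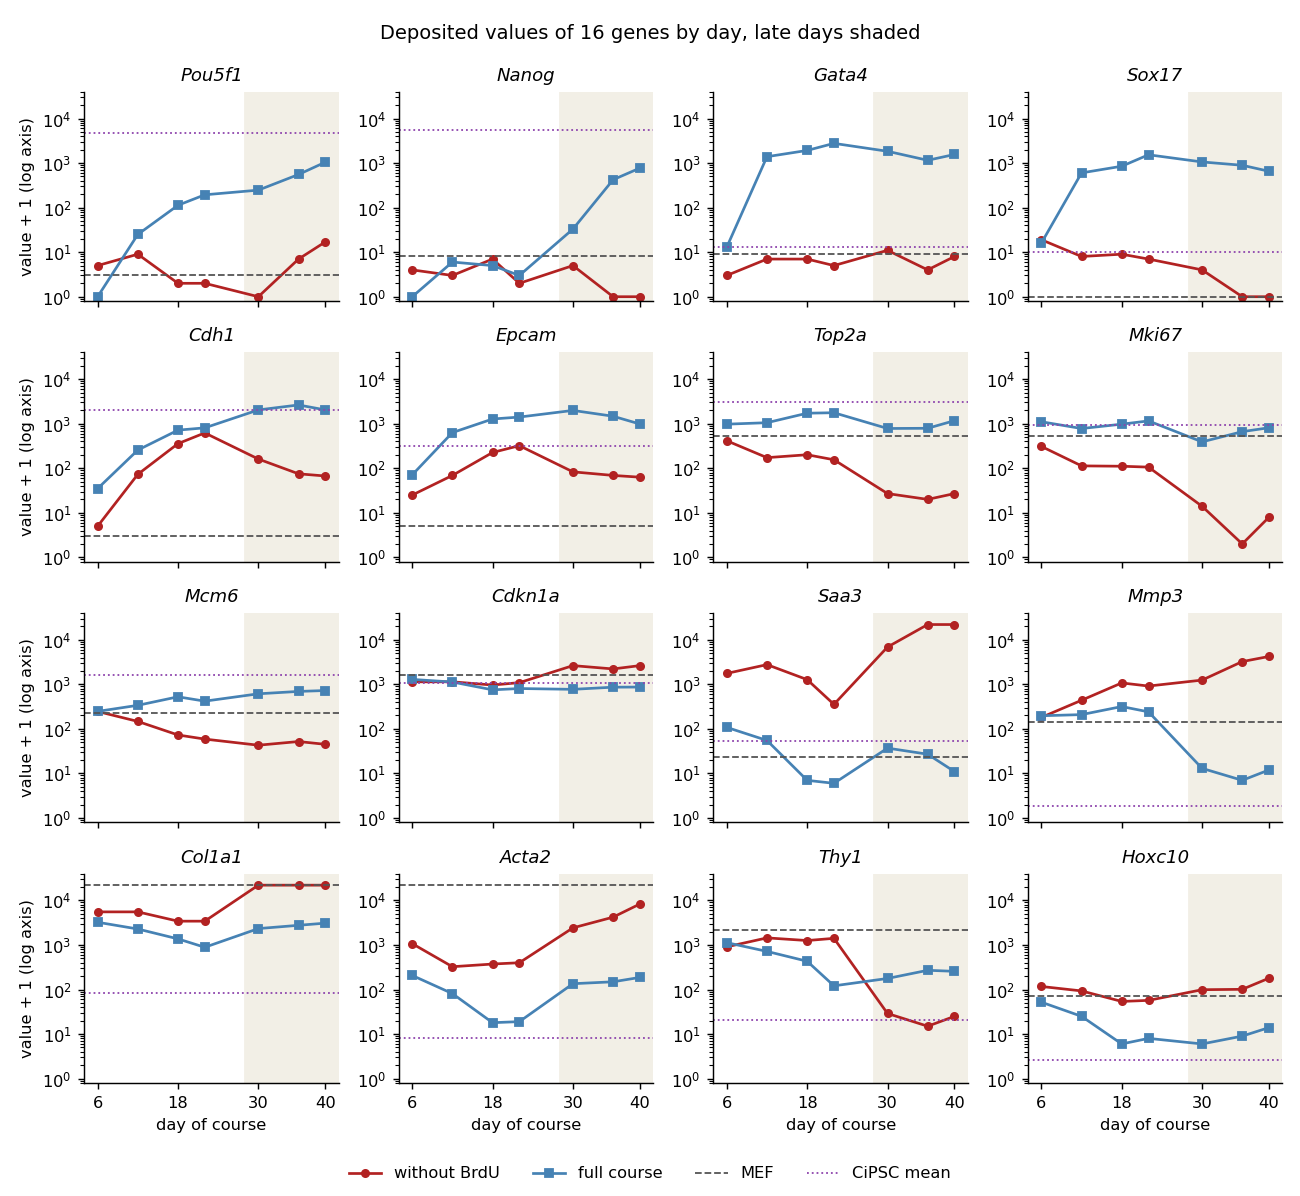
Values of 16 genes (y axis, value + 1 on a log scale) on days 6 to 40 (x axis) without BrdU and in the full course, 1 library per point, with MEF as a dashed line, the CiPSC mean as a dotted line and days 30 to 40 shaded. Without BrdU, Top2a lies at 19 to 26 on the shaded days against 780 to 1170 in the full course, and Saa3 reaches the ceiling of 21988.

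More fibroblast identity genes were higher without BrdU than lower, and their median lay -1.07 on the log2 scale from MEF without BrdU, against -2.35 in the full course. Of 32 tested (34 listed), 19 were higher and 4 lower, with a median of 1.60. Prrx1, a homeobox factor of limb and trunk mesenchyme, was at 1517, 1412 and 1496 without BrdU, against 136, 163 and 138 in the full course and 2220 in MEF (3.34 ± 0.14, adjusted p = 4.49e-05). Twist2 and Twist1, basic helix-loop-helix factors of mesenchyme, were at 277, 481 and 345 (Twist2) and 526, 498 and 529 (Twist1) without BrdU, against 24, 20 and 20 (Twist2) and 50, 80 and 64 (Twist1) in the full course. Among surface proteins, the growth factor receptor Pdgfrb was at 946, 840 and 938 without BrdU, against 52, 90 and 80 in the full course (3.63 ± 0.21), and the collagen receptor Mrc2 at 2904, 2545 and 2543, against 356, 337 and 332 (2.96 ± 0.13). None of these 5 genes, picked by smallest p, overlapped between courses, and neither did 59.4% of all genes tested.

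Thy1, the surface glycoprotein used to sort out fibroblasts, went the other way. It was at 28, 14 and 24 without BrdU, against 176, 269 and 255 in the full course and 2167 in MEF (-3.38 ± 0.32, adjusted p = 0.00048). The other members that fell were Vcam1, Nt5e and Meox2, and 2 of the 4 falls were called without day 36 or without day 40. In all, 17 of 32 members were at least 1 log2 unit below MEF without BrdU, against 30 of 32 in the full course. Mesothelial markers, which fibroblast cultures can also hold, summed to 161 to 296 without BrdU and 53 to 58 in the full course, with 3 of 5 tested called higher and 1 lower (0 without day 36 or day 40); their part in the mesenchymal values was not tested.

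Collagen and its processing enzymes were higher. Of 29 tested (30 listed), 21 were higher without BrdU and 1, the prolyl hydroxylase P4ha1, lower (0 without day 30 or day 40), with a median of 2.05. Col1a1, the main chain of type I collagen (chr11:94936224-94953042, plus strand), was at the ceiling of 21988 in all 3 libraries without BrdU, against 2331, 2762 and 3088 in the full course (3.02 ± 0.21, adjusted p = 0.000147), a limit. Lox, which cross-links collagen and elastin, was at 11344, 8334 and 11344 without BrdU, against 714, 481 and 806 in the full course (3.97 ± 0.16), and Adamts2, the procollagen N-proteinase, at 1345, 1410 and 1557, against 108, 117 and 116 (3.65 ± 0.13). Col15a1, a basement membrane zone collagen, was at 964, 542 and 720 without BrdU, against 16, 26 and 26 in the full course (4.97 ± 0.30). In all, 4 members reached the ceiling.

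Proteoglycans and elastic fibre genes gave 35 of 40 higher and 1 lower, with a median of 2.64. The microfibril proteins Mfap4 and Mfap5 were at 4208, 3233 and 2419 (Mfap4) and 1192, 1441 and 1038 (Mfap5) without BrdU, against 70, 46 and 60 (Mfap4) and 46, 36 and 34 (Mfap5) in the full course, differences of 5.77 ± 0.19 and 4.95 ± 0.17. Dcn (decorin) and Lum (lumican), small leucine-rich proteoglycans on collagen fibrils, were at 8336, 11346 and 11346 (Dcn) and 4226, 3102 and 2430 (Lum) without BrdU, against 788, 615 and 684 (Dcn) and 223, 222 and 234 (Lum) in the full course. Matn2 (matrilin 2) was at 1371, 1290 and 1445 without BrdU, against 82, 86 and 86 in the full course (4.0 ± 0.13). Day-to-day spread within a course was small beside these gaps. The member that fell was Ctgf, a matricellular target of YAP and TGF-beta, at 532, 521 and 756 without BrdU, against 1316, 2902 and 1832 in the full course (-1.69 ± 0.26, adjusted p = 0.00267).

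Matrix proteases and their inhibitors rose together: 21 of 24 were higher without BrdU and 2 lower, with a median of 2.71. Besides Mmp3 and Ctsk, the gelatinase Mmp2 was at 8324, 6875 and 6875 without BrdU, against 791, 671 and 607 in the full course (3.42 ± 0.15). The serpins Serpine2 and Serpinf1 were at 21988 in all 3 libraries (Serpine2) and at 4504, 4962 and 4962 (Serpinf1) without BrdU, against 874, 900 and 912 (Serpine2) and 348, 301 and 338 (Serpinf1) in the full course. Timp2, a metalloprotease inhibitor, was at 6080, 4504 and 6080 without BrdU, against 825, 840 and 840 in the full course (2.72 ± 0.17). Its relative Timp3 fell, at 1989, 1516 and 2038 against 2556, 3638 and 3094 (-0.74 ± 0.21, adjusted p = 0.0275), as did Adam19 (-1.02 ± 0.17); without day 30, day 36 or day 40, and without the intensity trend, 1 of these 2 falls was called.

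Of 16 contractile genes of smooth muscle and myofibroblasts 13 were higher without BrdU and 1 lower, with a median of 2.38. Acta2, smooth muscle actin, was at 2419, 4208 and 8314 without BrdU, against 134, 148 and 186 in the full course and 21988 in MEF (4.82 ± 0.25, adjusted p = 6.54e-05). Tagln, an actin-binding protein, was at 1753, 2760 and 3230 without BrdU, against 112, 120 and 139 in the full course (4.33 ± 0.17), and Tpm2, a tropomyosin, at 1069, 1712 and 1874, against 102, 110 and 131 (3.72 ± 0.16). Among the late days, all 3 were lowest on day 30 and highest on day 40 in both courses. The transcription factor Srf, which drives many contractile genes, was lower, at 288, 347 and 366 without BrdU, against 441, 815 and 614 in the full course (-0.86 ± 0.17, adjusted p = 0.00641), with adjusted p = 0.0538 without day 36 and 0.0594 without day 40.

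Hox genes, which record position along the body axis, kept MEF levels without BrdU. Of 30 tested (36 listed), 27 were higher without BrdU and 0 lower, with a median of 2.71. Hoxc10 was at 98, 100 and 179 without BrdU, against 5, 8 and 13 in the full course and 69 in MEF (3.74 ± 0.29, adjusted p = 0.000226). Hoxa5 was at 83, 92 and 93 without BrdU, against 4, 4 and 7 in the full course and 78 in MEF (3.95 ± 0.34). Hoxb2 was at 64, 90 and 86 without BrdU, against 4, 4 and 5 in the full course, and Hoxc6 at 270, 216 and 274, against 58, 30 and 38. No value overlapped between courses for these 4 genes, picked by smallest p, or for 59.4% of all genes tested. Without BrdU 25 of 30 lay within 1 log2 unit of MEF, and in the full course 29 of 30 lay at least that far below it.

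**Figure D3:**
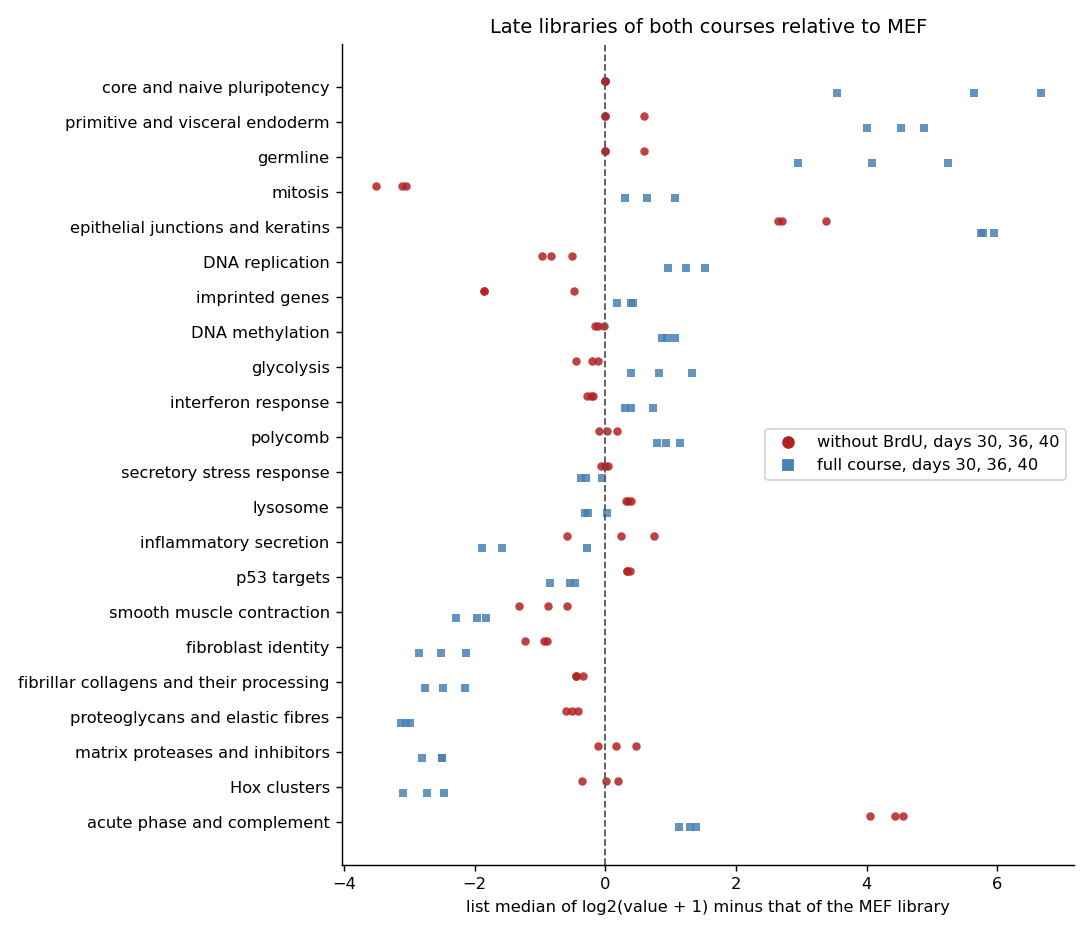
List medians of each library on days 30, 36 and 40 relative to the MEF library (log2 of value + 1), without BrdU and in the full course, 1 point per library. Averaged over days the Hox median was -0.12 without BrdU and -2.93 in the full course, and the pluripotency median was 0 without BrdU and 5.12 in the full course.

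Acute-phase and complement genes were high without BrdU, above MEF as well as above the full course. Of 16 tested (21 listed), 13 were higher and 1 lower, with a median of 3.28, and 14 of 16 were at least 1 log2 unit above MEF without BrdU, against 9 of 16 in the full course. C3, the central complement protein, was at 2414, 1468 and 1554 without BrdU, against 214, 148 and 153 in the full course (3.38 ± 0.13). Cp, the copper carrier ceruloplasmin, was at 3627, 4959 and 4958 without BrdU, against 248, 225 and 257 in the full course (4.20 ± 0.16), and Serping1, the C1 inhibitor, at 6869, 8316 and 8316, against 862, 842 and 804 (3.22 ± 0.16). Hpx (hemopexin) fell, at 13, 34 and 12 without BrdU, against 203, 236 and 226 in the full course (-3.58 ± 0.32). Saa3 belongs to a gene family, and whether reads were shared among its members is not known.

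Of 29 inflammatory genes tested (33 listed) 15 were higher without BrdU and 0 lower, with a median of 0.97, and among its 14 chemokines 8 were higher, with a median of 2.63 over the 14. Cxcl12, a stromal chemokine, was at 714, 1036 and 1288 without BrdU, against 32, 58 and 79 in the full course (4.19 ± 0.16). The monocyte attractants Ccl7 and Ccl2 were at 444, 1618 and 934 (Ccl7) and 410, 1321 and 852 (Ccl2) without BrdU, against 20, 36 and 26 (Ccl7) and 32, 130 and 47 (Ccl2) in the full course. Day 36 was the highest late day in both courses for Ccl7 and Ccl2. So it was for the neutrophil attractant Cxcl1, at 655, 3420 and 1875 without BrdU, against 104, 559 and 434 in the full course (2.45 ± 0.16). Il6, a cytokine that induces acute-phase genes in liver, was at 36, 684 and 164 without BrdU, against 4, 44 and 26 in the full course (3.14 ± 0.32), and its call depended on the day block (adjusted p = 0.0542 without it). Nfkbiz, an NF-kappa-B co-factor, had the same day pattern (adjusted p = 0.109 without the block).

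Markers of macrophages and blood, cells that make many of these cytokines, summed to 235 to 381 without BrdU and 188 to 207 in the full course, against 4737 in MEF. Of 7 tested, 2 were called higher (28.6%) and 2 lower (28.6%; 1 lower without any 1 of the 3 days). Both shares were near those of all genes tested, 24.6% higher and 25.4% lower. The leukocyte antigen Ptprc was at 0 in all 6 late libraries.

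Interferon-response genes ran against the inflammatory ones. Of 24 tested (25 listed), 15 were lower without BrdU (62.5%) and 6 higher (25%), with a median of -1.0. Over all genes tested 25.4% were lower and 24.6% higher, so the higher share was near that of all genes. The count of lower members was 9 without day 30 or without day 36. The antiviral genes Oasl2 and Oas1a were at 125, 130 and 117 (Oasl2) and 20, 30 and 28 (Oas1a) without BrdU, against 1026, 820 and 820 (Oasl2) and 152, 174 and 140 (Oas1a) in the full course, differences of -2.82 ± 0.15 and -2.55 ± 0.23. Ifi27 rose to 549, 848 and 637 without BrdU, against 200, 217 and 223 in the full course (1.64 ± 0.16). Antigen presentation by MHC class I had 6 of 13 higher and 2 lower (median 0.96); without day 36 or day 40 these counts were 2 higher and 0 lower. Its peptide transporter subunit Tap2 was at 142, 194 and 188 without BrdU, against 28, 33 and 22 in the full course (2.62 ± 0.24), while the heavy chain H2-K1, whose reads may be shared with other H2 genes, was at 628, 794 and 700, against 1302, 1179 and 972 (-0.70 ± 0.16).

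Chromatin genes were lower on balance. Among 16 DNA methylation genes 11 were lower without BrdU and 2 higher (median -1.37); 7 were lower without day 36 or day 40, and 1 higher without day 40. Uhrf1, which brings the maintenance methyltransferase to replicated DNA, was at 7, 3 and 7 without BrdU, against 366, 416 and 489 in the full course (-6.05 ± 0.30, adjusted p = 6.26e-05), and that enzyme, Dnmt1, at 259, 138 and 175, against 494, 564 and 780 (-1.70 ± 0.25). Tet1, a methylcytosine oxidase of pluripotent cells, was at 16, 4 and 6 without BrdU, against 65, 195 and 330 in the full course (-4.27 ± 0.71). Among 21 polycomb genes 13 were lower and 2 higher (median -0.76); 7 were lower without day 36 or day 40, and 1 higher without any 1 of the 3 days. Epop, a polycomb partner of pluripotent cells, was at 10, 26 and 16 without BrdU, against 868, 804 and 631 in the full course (-5.47 ± 0.29), and the methyltransferase Ezh2 at 50, 64 and 67, against 210, 332 and 533 (-2.46 ± 0.22). The chromobox gene Cbx6 was higher, at 670, 504 and 570 without BrdU, against 182, 110 and 214 in the full course (1.82 ± 0.18).

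Imprinted genes, expressed from 1 parental allele, were mostly lower: 15 of 21 tested (22 listed) fell and 3 rose, with a median of -1.89. Peg10, a retrotransposon-derived gene of placenta (chr6:4747306-4760517, plus strand), was at 166, 85 and 173 without BrdU, against 11331, 11331 and 21988 in the full course (-6.70 ± 0.22, adjusted p = 3.65e-05). The neighbours H19, a growth-restraining noncoding RNA, and Igf2, a fetal growth factor, were at 1684, 1256 and 1048 (H19) and 1302, 879 and 932 (Igf2) without BrdU, against the ceiling on all 3 days (H19) and 6868, 5529 and 5529 (Igf2) in the full course. Ndn (necdin) rose to 369, 410 and 390 without BrdU, against 107, 95 and 83 in the full course (2.03 ± 0.16). Peg10 and H19 were low in CiPSC too, at 151 ± 71.2 and 41.2 ± 38.2 (SD, n = 6). The count of members that rose was 1 without day 36 or day 40.

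Signalling lists held members called in both directions, in shares that in part lay near those of all genes tested (24.6% higher, 25.4% lower). In the Nodal and BMP list 15 of 36 tested (37 listed) were higher without BrdU and 9 lower (25%, near the share of all genes; 4 without day 36, 5 without day 40). Inhbb, an activin subunit, was at 1409, 786 and 1179 without BrdU, against 75, 46 and 70 in the full course (4.11 ± 0.14), and the ligand Tgfb1 at 324, 421 and 336, against 44, 50 and 20 (3.30 ± 0.26). The Nodal co-receptor Tdgf1 was listed at 0 in every late library without BrdU, against 66, 210 and 470 in the full course. Wnt ligands and secreted antagonists were higher in 14 of 18 and lower in 3 (median 2.57), whereas Wnt targets were lower in 7 of 15 and higher in 4 (median -0.98); of both roles together, 10 were lower, and 6 without day 40. The ligand Wnt9a was at 250, 198 and 238 without BrdU, against 3, 6 and 3 in the full course (5.57 ± 0.35), and the antagonist Sfrp1 at 3426, 2170 and 3426, against 202, 185 and 248 (3.80 ± 0.15). Axin2, a target often read as a gauge of Wnt activity, was at 367, 112 and 247 without BrdU, against 131, 249 and 194 in the full course, and its values overlapped (0.23 ± 0.45, adjusted p = 0.697).

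Growth factor and retinoid genes gave large differences of both signs. The mesenchymal ligand Fgf7 was at 1340, 1436 and 2212 without BrdU, against 88, 100 and 88 in the full course (4.13 ± 0.19), while the receptor Fgfr4 was listed at 0 without BrdU, against 395, 300 and 210, and its co-receptor Klb was at 2, 0 and 0, against 288, 246 and 120 (-7.15 ± 0.43). Another receptor, Fgfr1, was higher, at 1288, 1386 and 1340 without BrdU, against 178, 308 and 325 in the full course (2.35 ± 0.19). Over the FGF list 9 of 17 tested (23 listed) were higher (52.9%) and 5 lower (29.4%), beside 24.6% and 25.4% of all genes tested. Without day 36 or day 40, 5 were higher and 3 lower. Igf1 was at 4516, 2917 and 3101 without BrdU, against 110, 116 and 70 in the full course (5.15 ± 0.19), and Igf2bp1, which binds the Igf2 transcript, at 33, 24 and 22, against 740, 958 and 903 (-5.0 ± 0.22); 5 of 18 insulin-like growth factor genes were higher (27.8%) and 7 lower (38.9%). Among 16 retinoic acid genes 9 were higher and 5 lower (3 without day 36 or day 40). Crabp1, a retinoic acid carrier, was at 1259, 1878 and 1212 without BrdU, against 58, 74 and 70 in the full course (4.39 ± 0.16), and Cyp26a1, which degrades retinoic acid, at 6, 1 and 3, against 2902, 714 and 558 (-8.10 ± 0.35).

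Of 19 glycolysis genes 14 were lower without BrdU and 0 higher, with a median of -1.33; 8 were lower without day 40. The glucose transporters Slc2a1 and Slc2a3 were at 464, 560 and 554 (Slc2a1) and 98, 76 and 82 (Slc2a3) without BrdU, against 5522, 5522 and 6078 (Slc2a1) and 2216, 2764 and 4210 (Slc2a3) in the full course, differences of -3.44 ± 0.15 and -5.11 ± 0.23. Pdk1, a kinase that inhibits pyruvate dehydrogenase, was at 73, 74 and 85 without BrdU, against 242, 344 and 506 in the full course (-2.16 ± 0.20). Of 25 ribosome biogenesis genes 10 were lower and 1 higher (median -0.52; 6 lower without day 40); the nucleolar chaperone Npm1 was at 3854, 4518 and 4518 without BrdU, against the ceiling on all 3 days in the full course, and the member that rose was Myc, at 90, 377 and 234 against 22, 114 and 39 (2.09 ± 0.23).

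Of 28 lysosome genes 11 were higher without BrdU (39.3%) and 4 lower (14.3%), beside 24.6% and 25.4% of all genes tested. The median was 0.33, and 2 were lower without day 36. Lipa, lysosomal acid lipase, was at 1762, 1277 and 1323 without BrdU, against 464, 280 and 244 in the full course (2.18 ± 0.15), whereas the lysosomal gene regulator Tfeb was at 26, 20 and 24, against 119, 166 and 102 (-2.40 ± 0.28). Cholesterol genes had 8 of 23 higher (34.8%) and 5 lower (21.7%), with a median of 0.36. The count of higher members was 3 without day 40, and that of lower members 3 without day 36 or day 40. Msmo1, a sterol oxidase, was at 312, 526 and 524 without BrdU, against 118, 216 and 238 in the full course. In the secretory stress list 8 of 22 were higher (36.4%) and 1 lower (4.55%), with a median of 0.16. The count of higher members was 5 without day 36 and 2 without day 40, and 0 were lower without any 1 of the 3 days. Among the higher members was the stress factor Ddit3 at 315, 537 and 398, against 76, 123 and 141 (1.88 ± 0.18).

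Whether the difference between courses widened or narrowed over days 30 to 40 could not be resolved. By limma's test of course by day, 0 of 16151 genes were called (0%), with 1001 at an unadjusted p below 0.05 and a smallest adjusted p of 0.779. In 7 alternative settings the count of calls was again 0, and 815 to 1183 genes had an unadjusted p below 0.05.

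Against days 6 to 22 the difference between courses had changed for part of the genes. The test of that change, over 14 libraries and 16308 genes, called 2218 genes (13.6%): 1145 in which the difference was more positive late than early (7.02%) and 1073 in which it was more negative (6.58%). Leaving out 1 day in turn gave 713 (without day 40), 806 (without day 36), 1056 (without day 12), 1376 (without day 18) and up to 2472 calls. Of 3978 genes higher without BrdU late, 1045 (26.27%) had a larger difference late than early and 4 a smaller one. Of 4099 lower, 974 (23.76%) had a larger fall late and 4 a smaller one. All these genes were picked by their late difference in the same late libraries, which favours larger late differences. These splits are therefore no test of widening. The remaining genes were not called in the late against early test, which does not show that their difference was the same early and late.

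Mitosis genes were among those that parted further. In that list 26 of 44 had a more negative difference late, and the list median was -1.77 early and -3.92 late. On days 6, 12, 18 and 22 Ccnb1 was at 106, 54, 72 and 44 without BrdU, against 240, 270, 616 and 468 in the full course, a change in the difference of -3.06 ± 0.49 (adjusted p = 0.00675). Top2a was at 413, 172, 200 and 154 without BrdU, against 975, 1052, 1720 and 1762 in the full course on those days (-2.59 ± 0.48, adjusted p = 0.0116). Both were already lower without BrdU on day 6, and both were lower on each late day than on any earlier day without BrdU. The Top2a call was lost without day 36 (adjusted p = 0.0543) or day 40 (adjusted p = 0.0592). DNA replication genes had 2 of 37 more negative and 1 more positive, not above the shares of all genes in this test (6.58% and 7.02%). Their list medians were -1.26 early and -2.03 late.

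Epithelial genes parted late, after early days on which several climbed in both courses. Of this list, 24 of 36 had a more negative difference late, with medians of -0.57 early and -2.89 late. Cdh1 was at 4, 72, 356 and 620 without BrdU on days 6 to 22, against 34, 255, 716 and 806 in the full course; by day 40 it was at 66 without BrdU, against 2038 (change in difference -3.07 ± 0.57, adjusted p = 0.0118). Cldn7 was at 1, 18, 47 and 86 without BrdU, against 3, 9, 40 and 70 in the full course, so the early values overlapped (-4.26 ± 0.47, adjusted p = 0.00193). Krt18 was at 107, 298, 750 and 1070 without BrdU, against 468, 655, 1166 and 1408 in the full course (-2.16 ± 0.37, adjusted p = 0.00909). All 3 were higher without BrdU on day 22 than on any late day. The Cdh1 call was lost without day 36 (adjusted p = 0.0588) or day 40 (adjusted p = 0.061).

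Glycolysis and imprinted lists had early medians near 0, over members that lay on both sides. The glycolysis median was 0.08 early and -1.33 late, with 12 of 19 more negative late; Slc2a1 was at 793, 820, 676 and 1365 without BrdU on days 6 to 22, against 878, 776, 1364 and 2328 in the full course (-2.98 ± 0.28, adjusted p = 0.00104). The imprinted median was 0 early and -1.89 late, with 9 of 21 more negative. Igf2 was at 11331, 4966, 4506 and 4506 without BrdU early, against 8314, 4208, 4208 and 2907 in the full course, higher without BrdU on all 4 days, and lower on all 3 late days (-2.89 ± 0.23, adjusted p = 0.000677). Peg10 was at 982, 1368, 2215 and 3420 without BrdU, against 5529, 8314, 11331 and 11331 in the full course, lower throughout (-4.41 ± 0.32, adjusted p = 0.000572).

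Matrix and Hox lists held members whose difference was more positive late, most often among proteases. Of 24 proteases and inhibitors 16 had a more positive difference late (medians 0.66 early and 2.71 late), as did 17 of 40 proteoglycan and elastic fibre genes, 10 of 29 collagen genes and 14 of 30 Hox genes (0.71 early and 2.71 late). Ctsk was at 610, 834, 651 and 418 without BrdU early, against 148, 165, 82 and 46 in the full course (3.29 ± 0.29, adjusted p = 0.000828). Lox was at 4516, 4516, 4224 and 4224 without BrdU, against 5542, 4516, 1688 and 806 in the full course (3.12 ± 0.59, adjusted p = 0.0123). Lox went down in the full course over days 12 to 22, and without BrdU each late value was above each early one.

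Single genes crossed over. Thy1 was at 907, 1441, 1256 and 1408 without BrdU on days 6 to 22, against 1126, 716, 430 and 120 in the full course, and then lay at 14 to 28 without BrdU, against 176 to 269, on the late days (-4.82 ± 0.78, adjusted p = 0.00735). Apoe was at 940, 1614, 1070 and 1004 without BrdU early, against 956, 2216, 2280 and 3634 in the full course, and was the higher one without BrdU only on the late days (2.69 ± 0.42, adjusted p = 0.00637). Counted over the table, 47 of the 1045 genes with a larger rise late, and 72 of the 974 with a larger fall late, had an early difference of the other sign by at least 1 on the log2 scale.

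Of 7 inhibitors of cyclin-dependent kinases, 3 had a more positive difference late. Cdkn2b was at 488, 402, 420 and 413 without BrdU on days 6 to 22, against 313, 256, 126 and 100 in the full course (2.25 ± 0.38, adjusted p = 0.00852). Cdkn1a was at 1138, 1138, 963 and 1090 without BrdU, against 1289, 1126, 751 and 804 in the full course (1.42 ± 0.22, adjusted p = 0.00590). Cdkn1a overlapped between courses early and did not late, when it was at 2215 to 2631 without BrdU. For Cdkn2a the change was not called (1.65, adjusted p = 0.0977). For p53 targets as a list the medians were 0.17 early and 1.07 late, with 12 of 28 more positive late.

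**Figure D4:**
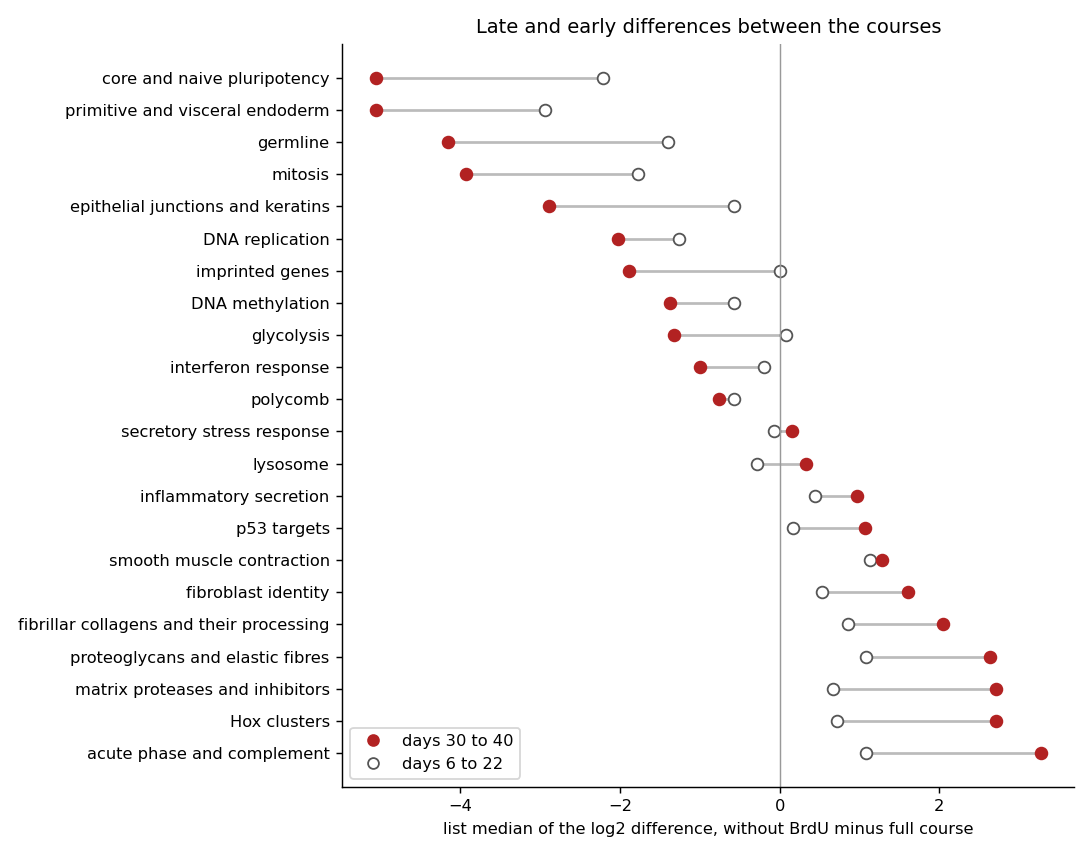
Median difference of each gene list, without BrdU minus full course (x axis, log2 of value + 1), on days 30 to 40 (filled points) and on days 6 to 22 (open points), 1 row per list. The epithelial list lies at -2.89 late and -0.57 early, and the Hox list at 2.71 late and 0.71 early.

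Set against MEF, the late libraries without BrdU lay nearer to the starting cells than the full course did for mesenchymal lists, and farther from them for mitosis and acute-phase lists. The median distance from MEF was -0.33 without BrdU and -2.44 in the full course for collagens. It was -0.52 without BrdU and -3.11 in the full course for proteoglycans and elastic fibres, and 0.26 without BrdU and -2.62 in the full course for proteases. For DNA replication it was -0.82 without BrdU and 1.20 in the full course, with 17 of 37 genes at least 1 log2 unit below MEF without BrdU and 0 in the full course, and 0 at least 1 log2 unit above MEF without BrdU and 22 in the full course. For acute-phase genes it was 4.20 without BrdU and 1.34 in the full course. MEF is a single library, so these distances carry no test.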

How the data were processed

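Total RNA was extracted with TRIzol, made into TruSeq RNA libraries and sequenced on a NextSeq 500, per the labels' protocols. Bowtie2, RSEM and bcl2fastq were used with mm10, per the submitters' processing notes; versions, annotation, strand and normalization are not given in the sources used here. The values, deposited by the authors for 16718 genes in 26 libraries, are treated here as a score: the table's name says CPM, but every library sums to 4143561 to 4162600, has a median of 77 (76 in CiPSC 5) and holds 10 genes at 21988, as quantile normalization with rounding gives. Such scaling favours equal numbers of rises and falls, depth is unknown, and genes at the ceiling give limits.

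Values were analysed as log2(value + 1) with limma 3.58.1 in R 4.3.3, with an intensity trend, for genes with a mean of at least 1; tests are two-sided with Benjamini-Hochberg adjustment below 0.05. The late fit used 6 libraries with day as a block, since each day has 1 library of each course; the change with day used day as a number; late against early used 14 libraries. Counts and tables were made with Python 3.11.15, pandas 2.3.3 and numpy 2.4.6, and figures with matplotlib 3.10.9. The scripts were tested on simulated data. Gene positions are from a GENCODE annotation of mm10; promoters are from RefSeq.

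The compared libraries, gene lists and markers were chosen with earlier results of these data known, and support nothing independently. The text names the 12 largest rises and falls among called genes with 1 sign on all 3 days and a mean of at least 100 in the higher course, the 6 largest of each sign in late against early, up to 4 called members of each list and role by smallest p, members not called, and 22 fixed genes; members named beyond these, and early values, were chosen after their values were seen.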

Additional observations from a re-analysis of the deposited data

Results flagged for a closer look

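In 23 genes the difference between courses, without BrdU minus full course, was itself different on days 30 to 40 from that on days 6 to 22, by limma's test of course by period over 14 libraries (2218 of 16308 genes were called, 13.6%). Of these genes, 12 are the largest changes by the naming rule and the rest were always to be named. Values below are changes of the difference on the log2(value + 1) scale, late minus early.

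The change was positive in 6 genes named for its size. It was 6.864 for Ptgds, a prostaglandin D synthase, which was at 66, 244 and 228 without BrdU late, against 1, 1 and 0 in the full course, and at 0 to 1 in both courses on every early day. It was 6.8068 for Mmp3, a matrix protease, at 180, 438, 1074 and 914 without BrdU on days 6, 12, 18 and 22, against 196, 208, 316 and 240 in the full course. For Ccl8, a chemokine, the change was 6.0245, and for Mgp, an inhibitor of calcification, 6.0124. For Unc45b, a myosin chaperone, it was 5.4711: the gene was at 34, 36, 36 and 32 without BrdU early, against 24, 148, 188 and 98 in the full course, and at 72, 67 and 36 late, against 5, 2 and 1. For Gpnmb, a glycoprotein of lysosomes, it was 5.3209: the gene was at 2908, 2550 and 3090 without BrdU late, against 149, 86 and 88 in the full course.

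The change was negative in 6 genes named for its size. It was -8.2236 for Igfbp1, -7.7317 for Cyp2s1, -7.5827 for Tff1, -7.4782 for Aifm3, -7.2383 for Nanog and -7.0902 for Tfap2c. Cyp2s1, a cytochrome P450, was at 12, 20, 82 and 197 without BrdU early, against 20, 12, 34 and 60 in the full course, and at 2, 1 and 1 late, against 352, 198 and 354. Tff1, a trefoil peptide of mucosal epithelia, was at 2, 72, 160 and 172 without BrdU early, against 0, 10, 5 and 6 in the full course, and at 6, 0 and 4 late, against 42, 94 and 48. Tfap2c, a trophoblast and germline factor, was at 56, 96, 66 and 83 without BrdU early, against 30, 15, 22 and 32 in the full course, and at 1, 0 and 2 late, against 18, 150 and 192. These 3 genes were thus higher without BrdU on most early days and lower on every late day.

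Among the genes always named, the change was -5.1723 for Sox2, -2.6958 for Sall4, -3.0746 for Cdh1, -1.9867 for Epcam, -4.8241 for Thy1, -3.8122 for Mki67, -2.5861 for Top2a and -1.8209 for Tk1, and 1.6903 for Col1a1, 3.6218 for Saa3 and 1.4181 for Cdkn1a. Saa3 was already high without BrdU early, at 1758, 2768, 1275 and 354, against 107, 54, 6 and 5 in the full course. Sall4 was at 0, 10, 8 and 13 without BrdU early, against 13, 228, 424 and 760 in the full course.

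Some of these calls rested on single days. The adjusted p without day 40 was 0.062 for Igfbp1, 0.0531 for Mgp, 0.0614 for Mki67, 0.061 for Cdh1, 0.0592 for Top2a and 0.0888 for Nanog. Without day 36 it was 0.0551 for Epcam, 0.0588 for Cdh1, 0.0543 for Top2a and 0.0881 for Nanog. For Saa3 it was 0.0692 to 0.129 in the 4 settings that ended its call, among them leaving out day 12, 36 or 40. Sall4 lost its call without day 12, 18, 30, 36 or 40, Sox2 without any day but 30, and Tk1 without any day but 22.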

How the results depend on the processing

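The late count of calls, 8077, was 6758 to 8193 under 9 other settings (pseudocount, filter, centring, intensity trend, ceiling genes, day block, and a fit over 14 libraries), and no gene in shared calls changed sign. Without the day as replicate block it was 8100, so the pairing by day changed the count little; Il6 and Nfkbiz lost their calls. With 1 day left out it was 4253 to 6718. The late against early count, 2218, was 1644 to 2434 under other settings and 713 to 2472 with 1 day left out; the cause was not tested, though each such fit has fewer samples. Median-centred values moved the median difference to -0.00271. For named genes, with each gene and setting counted separately, 3182 late results kept direction and call and 55 lost the call. In late against early, 449 stayed called or stayed not called, 41 lost the call and 3 gained it. Among genes not called in that test, Foxa2, Gata4, Gata6 and Lin28a changed sign in some settings. The late against early call of Saa3 was lost in 4 settings and of Sall4 in 8, and those of Sox2 and Tk1 in most fits with 1 day left out; early days 12 to 22 and leaving out day 6 are the same fit and are both in these counts. None of the calls of named genes reversed in sign. List counts stayed within 1.5 times in 961 cases and moved further in 119. With no replicate within a day, no depth and 10 genes per library at the ceiling, differences among the highest genes cannot be resolved.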

Other observations

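Markers of cell types other than those described above were counted in the same 6 late libraries. Trophoblast markers were lower without BrdU in 8 of 10 tested (13 listed) and higher in 0, with a median of -3.45, and summed to 48 to 101 without BrdU and 672 to 1031 in the full course; Gata2, a factor of trophoblast and blood, was at 10, 8 and 3 without BrdU, against 246, 348 and 334 in the full course (-5.38 ± 0.39). Endothelial markers were lower in 5 of 9 tested. They summed to 132 to 200 without BrdU and 5912 to 6098 in the full course, where most of the sum was Flt1, a receptor for vascular growth factors that other embryonic cells also make, at 42, 55 and 48 without BrdU, against 5530 on all 3 days in the full course (-6.82 ± 0.14, adjusted p = 2.06e-05). Pecam1, a defining endothelial marker, was at 0, 4 and 5 without BrdU, against 8, 114 and 222 in the full course.

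Adipocyte markers were higher without BrdU in 5 of 7 tested (10 listed), with sums of 1880 to 2002 without BrdU and 438 to 632 in the full course, most of it Lpl, lipoprotein lipase, at 1588, 1448 and 1620 against 477, 329 and 290. Cd14, a lipopolysaccharide co-receptor of myeloid cells, was at 154, 228 and 248 without BrdU, against 7, 7 and 3 in the full course (5.03 ± 0.39), while Lyz2, the macrophage lysozyme, was at 32, 52 and 44, against 8, 8 and 4, and at 1686 in MEF. Of the same marker list, Cd68 (-1.74, adjusted p = 0.00152) and Csf1r (-1.14, adjusted p = 0.046) were called lower. Krt15, a basal keratinocyte keratin, was at 316, 100 and 50 without BrdU, against 7, 8 and 2 in the full course (4.29 ± 0.43), while Lor, another keratinocyte marker, was called lower (-3.74, adjusted p = 0.002). Of 8 neural markers tested 0 were called by limma in either direction at the settings of the report, and in some other settings 1 to 3 were.

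Germline genes were lower without BrdU in 16 of 19 tested (20 listed; 9 without day 36 or day 40) and higher in 0, with a median of -4.15. Rec8, a meiotic cohesin subunit, was at 3, 4 and 4 without BrdU, against 326, 210 and 216 in the full course (-5.73 ± 0.33), and Dazl, which binds RNA in germ cells, at 13, 20 and 20, against 91, 192 and 425 (-3.42 ± 0.35; adjusted p = 0.127 in a fit over 14 libraries). Of genes of the 2-cell-stage embryo 6 of 10 tested (16 listed) were lower and 1 higher; 3 were lower without day 36 or day 40. Zscan4f and Zscan4c, near-identical copies whose reads may be shared, were listed at 0 without BrdU, against 116, 62 and 68 (Zscan4f) and 36, 24 and 34 (Zscan4c) in the full course.

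Of the genes tested, 527 were listed at 0 on all 3 late days without BrdU and 167 in the full course; the other course had a mean of at least 50 for 52 and 8 of these genes. An exact 0 can be a low value lost in rounding.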
